A study of Mus musculus with 12 samples.

Results

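Hepatic stellate cells are the vitamin A-storing pericytes of the liver sinusoid. In a healthy liver they hold retinyl esters in lipid droplets and wrap the sinusoidal capillaries, and after injury they can become contractile, matrix-depositing myofibroblasts. Genes used to recognise them in mouse liver are of 2 kinds, those of the quiescent, retinoid-storing state and those of the contractile or activated state, and several of the latter are shared with vascular smooth muscle and pericytes.

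The genes described here were given as a fixed list of 10 symbols, which was matched to 10 of the 28036 genes of the count table. The quiescent genes were Lrat, Reln, Ngfr, Hand2 and Colec11, and the contractile or activated genes were Acta2, Tagln, Rgs5, Des and Pdgfrb. All 10 had enough counts to be tested, among 13988 genes that did. Liver RNA came from 12 samples of the inbred mouse strain C57BL/6J, 3 for each of 4 groups. Normal chow was fed to control mice, and MASH mice received a high-fat diet that models metabolic dysfunction-associated steatohepatitis. Mice of the EE group had the same model and oral Eleutheroside E (100 mg/kg), a lignan glycoside from plants. Those of the resmetirom group had the model and oral resmetirom (3 mg/kg), which activates the beta form of the thyroid hormone receptor. Dosing covered the 4 weeks that followed 8 weeks of model building, control and MASH mice received 0.5% CMC-Na vehicle instead, and all livers were taken at 12 weeks. No age, sex or further genotype is used here. Whole liver was sequenced, so fewer stellate cells and less RNA per stellate cell cannot be told apart. Libraries are written as group and replicate number, such as control 1.

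The libraries held 17297864 to 21793311 counts. In control 1, 35.38% of counts were mitochondrial, against 2.4% to 4.38% in the others, and scaling factors stood farthest from 1 in control 1 (0.5085), resmetirom 1 (1.413) and resmetirom 2 (0.6632). Levels are CPM, computed from library sizes multiplied by edgeR's TMM factors, and errors of group means are the SD of 3 livers. Fold changes are log2 values with their SE from edgeR's quasi-likelihood test, and a gene passed when its Benjamini-Hochberg adjusted p over all tested genes lay below 0.05. The 8 hepatocyte markers had counts in every library, and so did the 10 stellate cell genes, whose lowest count was 21 (Ngfr in control 1).

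Start-site sequence is shown for Acta2, a gene of the contractile state, and Lrat, one of the quiescent state, because both held a close match to a contractile gene motif. RefSeq windows on GRCm38.p6, which run from 250 bases before to 50 after the start, were matched for 8 of the 10 genes, not for Tagln or Pdgfrb. The CArG box, whose inner letters are all A or T, is the site of serum response factor in contractile genes. It was in 0 of the 8 windows and in 1.63% of 32851 windows of all genes. A box with 1 inner letter that is not A or T, a search added after seeing that the exact box was absent, lay in Acta2 at 2 places and in Lrat at 1, and in 8.5% of all windows. Both strands were searched. The Acta2 stretches are 30 bases each with the box in capitals, and in the Lrat stretch, 250 bases before the start, capitals mark the box and an E-box (CANNTG). All 8 windows held an E-box, as did 72.3% of all windows, and AGATAA, the motif of factors such as Gata4, was in Colec11, Hand2 and Rgs5 and in 11.2% of all windows. All are read 5′ to 3′ on the gene's own strand, which is the minus strand.
Acta2, chr19:34255438-34255467: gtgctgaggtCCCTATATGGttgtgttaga
Acta2, chr19:34255388-34255417: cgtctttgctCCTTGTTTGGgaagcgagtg
Lrat, chr3:82903975-82904224: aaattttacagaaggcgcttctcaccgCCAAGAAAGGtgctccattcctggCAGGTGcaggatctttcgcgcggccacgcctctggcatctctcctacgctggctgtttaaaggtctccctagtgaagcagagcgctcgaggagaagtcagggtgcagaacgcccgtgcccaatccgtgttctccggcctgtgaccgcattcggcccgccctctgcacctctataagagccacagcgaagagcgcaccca

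The Acta2 boxes lay 84 to 75 and 34 to 25 bases before the RefSeq start. In GENCODE vM21 the Acta2 gene runs from 34241090 to 34255590 on chromosome 19 of GRCm38, and exon 1 of its transcript, from 34255290 to 34255590, covers both places, so the 2 annotations differ in where transcription starts. The Lrat box lay 223 to 214 bases before the start, outside the Lrat gene model (82892579 to 82903973 on chromosome 3). A match of letters is a description of the window and says nothing of binding.

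In the fit of all 12 libraries, no stellate cell gene passed the test in any comparison. The count was 0 of 10 for MASH against control, EE against MASH, resmetirom against MASH, EE against resmetirom and the test of any difference among the 4 groups. Over all tested genes, 0.0143%, 0.00715%, 0.665%, 0.307% and 1.6% passed in those 5 tests. Without adjustment, 0, 0, 3 and 3 of the 10 had p below 0.05 in the 4 comparisons, against 9.23%, 7.49%, 15% and 11.8% of all genes. The lowest adjusted p in the test among the 4 groups belonged to Pdgfrb (0.103) and Colec11 (0.151). In DESeq2, Pdgfrb (adjusted p = 0.00689) and Colec11 (adjusted p = 0.0303) passed that test, which 1649 of the 13988 genes passed there.

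In MASH and EE, deviations of samples with the same replicate number correlated weakly (r = 0.213 to 0.279). A fit of those 6 libraries with the number as a block, added after seeing the data, is given beside the first. That block was chosen on these same data, so its calls are no independent evidence. In the blocked fit, which has fewer residual degrees of freedom than the 8 of the first, 20.7% of all 13248 tested genes passed. Lrat (-0.57 ± 0.155, adjusted p = 0.0365) and Rgs5 (-0.598 ± 0.112, adjusted p = 0.0102) passed there, both lower, 2 of 10 genes and so near that share. Pdgfrb was at -0.6 ± 0.185 (adjusted p = 0.0527). Without the block, the fit of those 6 libraries gave adjusted p of 0.27 for Lrat and 0.0547 for Rgs5. With the block in all 12 libraries these were 0.694 and 0.734, and 5 genes of the table passed in place of 1.

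Per kilobase of exon, Colec11, a secreted collectin that can start the lectin pathway of complement, had the highest level in every group, at 12.3 ± 2.70 CPM per kilobase (SD, n = 3) in control and 25.5 ± 9.39 in resmetirom livers. In MASH livers Rgs5 came next at 3.71 ± 0.239, then Tagln at 2.88 ± 0.623, Lrat at 2.32 ± 0.429, Reln at 2.13 ± 0.143, Acta2 at 1.97 ± 1.65, Hand2 at 1.89 ± 0.276, Pdgfrb at 1.44 ± 0.248, Ngfr at 1.28 ± 0.248 and Des at 1.04 ± 0.252. From Rgs5 downward, each of these levels lay within the summed SDs of its neighbour in that order. Colec11 stood clear of all the others.

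**Figure D1:**
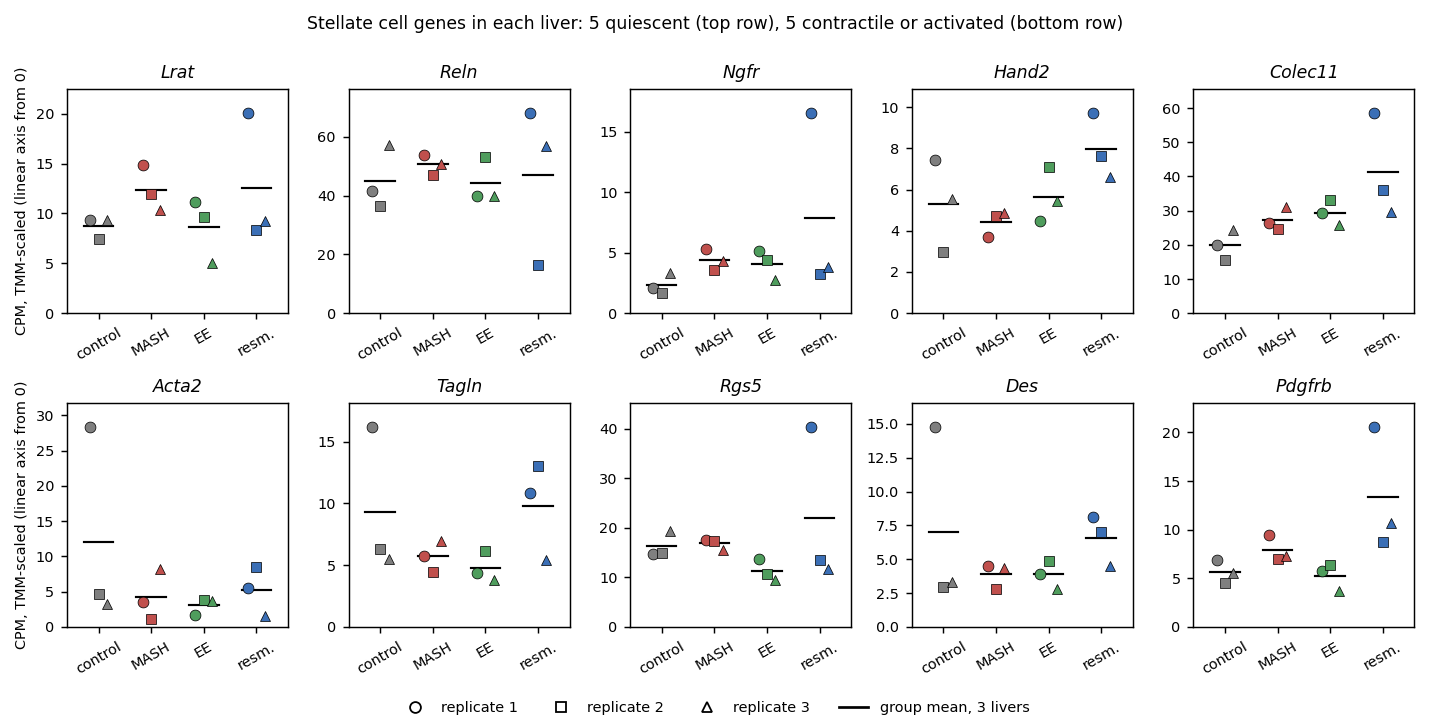
Level of each of the 10 genes in each liver, in CPM on a linear axis from 0 with its own scale per gene. Marker shape gives the replicate number and the bar the mean of 3 livers. Control 1 is the highest liver for Acta2, Tagln and Des, and resmetirom 1 is the highest for the other 7 genes.

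Lrat encodes lecithin retinol acyltransferase, which makes the retinyl esters that stellate cells store. Its level was 9.35, 7.44 and 9.39 CPM in control 1, 2 and 3 and 14.9, 11.9 and 10.4 in MASH. It was 11.2, 9.69 and 5.02 in EE and 20.1, 8.32 and 9.28 in resmetirom livers. All 3 MASH livers lay above all 3 control livers, while the treated groups overlapped MASH and held both the highest liver (resmetirom 1) and the lowest (EE 3). The log2 fold change was 0.51 ± 0.36 for MASH against control (adjusted p = 0.702) and -0.52 ± 0.36 for EE against MASH (adjusted p = 0.793, and 0.0365 with the block in those 2 groups).

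Ngfr, the p75 neurotrophin receptor, was at 2.11, 1.69 and 3.30 CPM in control and 5.30, 3.6 and 4.33 in MASH livers. EE livers had 5.13, 4.41 and 2.71, and resmetirom livers 16.6, 3.22 and 3.84. Every MASH liver was again above every control liver, and resmetirom 1 stood at more than 3 times the next highest liver. The change was 0.89 ± 0.56 for MASH against control (adjusted p = 0.658) and 0.85 ± 0.54 for resmetirom against MASH (adjusted p = 0.482), and the latter was -0.317 without resmetirom 1.

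Colec11 was at 20.0, 15.6 and 24.4 CPM in control, 26.4, 24.6 and 30.9 in MASH, 29.4, 33.1 and 25.9 in EE and 58.6, 36.0 and 29.6 in resmetirom livers. Its control livers were all below the MASH livers, and 2 of 3 resmetirom livers were above them. The change was 0.45 ± 0.26 for MASH against control (adjusted p = 0.624) and 0.60 ± 0.26 for resmetirom against MASH (adjusted p = 0.303). EE differed from MASH by 0.11 ± 0.26.

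Hand2 is a basic helix-loop-helix transcription factor of stellate cells. It had 7.44, 2.96 and 5.53 CPM in control, 3.69, 4.73 and 4.88 in MASH, 4.47, 7.08 and 5.43 in EE and 9.71, 7.64 and 6.61 in resmetirom livers. Its resmetirom livers lay above all 3 MASH livers, with a change of 0.85 ± 0.32 (adjusted p = 0.244), which was the lowest adjusted p of the 10 genes in that comparison.

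Reln encodes reelin, a large secreted glycoprotein. It was the steadiest of the genes across group means, at 45.1 ± 10.8, 50.6 ± 3.38, 44.4 ± 7.74 and 47.1 ± 27.2 CPM (SD, n = 3) in control, MASH, EE and resmetirom livers. The last group ran from 16.4 CPM in resmetirom 2, the lowest of the 12 livers, to 68.1 in resmetirom 1, the highest. The 4 fold changes lay between -0.19 and 0.17.

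Acta2 encodes smooth muscle alpha actin, the usual mark of an activated stellate cell and also of arterial smooth muscle. Its level was 28.3, 4.65 and 3.25 CPM in control and 3.50, 1.17 and 8.28 in MASH livers. EE livers had 1.64, 3.87 and 3.64, and resmetirom livers 5.47, 8.54 and 1.54. Control 1 was far above the other 11 livers and every pair of groups overlapped. MASH against control gave -1.45 ± 0.87 (adjusted p = 0.639), and 0.136 without control 1.

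Tagln, transgelin, an actin-binding protein of contractile cells, was at 16.2, 6.30 and 5.48 CPM in control and 5.77, 4.47 and 6.95 in MASH livers. It was 4.36, 6.15 and 3.81 in EE and 10.8, 13.0 and 5.43 in resmetirom livers. Des, the muscle intermediate filament protein desmin, was at 14.8, 2.92 and 3.30 in control and 4.49, 2.80 and 4.37 in MASH livers. Both genes were highest in control 1, followed by resmetirom 1 and 2 in either order. Des was 3.90, 4.90 and 2.83 CPM in EE and 8.13, 7.04 and 4.51 in resmetirom livers, which all lay above the MASH livers, with a change of 0.75 ± 0.54 (adjusted p = 0.532).

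Rgs5, a regulator of G protein signalling typical of pericytes, had 14.7, 15.0 and 19.4 CPM in control and 17.6, 17.3 and 15.6 in MASH livers. EE livers had 13.7, 10.6 and 9.52, all below MASH, and resmetirom livers 40.4, 13.6 and 11.8. EE against MASH gave -0.58 ± 0.39 (adjusted p = 0.792, and 0.0102 with the block in those 2 groups). In resmetirom 1 the level was 40.4 CPM against at most 19.4 in any other liver, and the other resmetirom livers were below all MASH livers.

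Pdgfrb, the receptor for platelet-derived growth factor that drives stellate cell proliferation and migration, came nearest to the threshold. It had 6.93, 4.48 and 5.58 CPM in control, 9.46, 6.98 and 7.26 in MASH, 5.75, 6.42 and 3.69 in EE and 20.6, 8.77 and 10.7 in resmetirom livers. MASH livers were all above control, EE livers all below MASH, and resmetirom livers all above EE. The change was 0.49 ± 0.33 for MASH against control (adjusted p = 0.693), -0.58 ± 0.33 for EE against MASH (adjusted p = 0.755) and 0.76 ± 0.33 for resmetirom against MASH (adjusted p = 0.306). EE against resmetirom gave -1.34 ± 0.34 (adjusted p = 0.131). That difference passed in DESeq2 (adjusted p = 0.0134) and in edgeR with no filter on low counts (adjusted p = 0.0219), where 410 and 176 genes passed. Without resmetirom 1 the difference was -0.875 (adjusted p = 0.328).

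**Figure D2:**
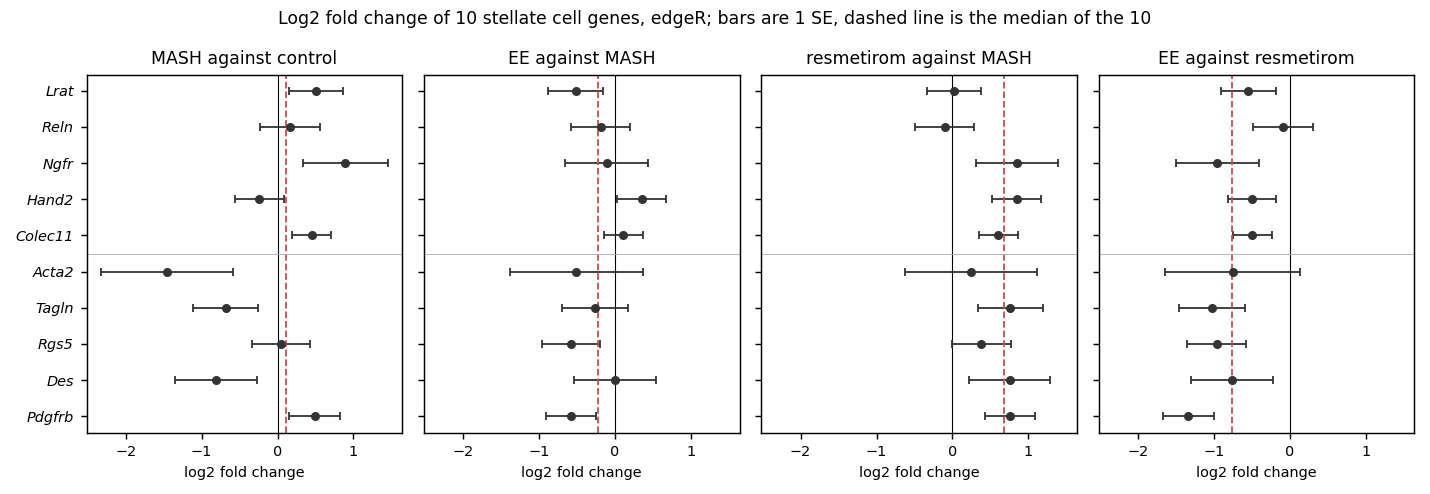
Log2 fold change of each gene in the 4 comparisons from the fit of all 12 livers, with bars of 1 SE, quiescent genes above the grey line. The dashed line is the median of the 10 genes, which runs from -0.757 in EE against resmetirom to 0.678 in resmetirom against MASH.

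The comparison of MASH with control asks what the diet model did to these genes. Of the 10, 6 had a positive and 4 a negative fold change, with a median of 0.105 against -0.017 over all tested genes. Lrat, Ngfr, Colec11 and Pdgfrb were higher in every MASH than in every control liver, 4 of 10 genes, where 10.2% of all tested genes were higher without overlap. None was lower without overlap, against 9.41% of all genes. The quiescent genes had a median of 0.449 and the contractile or activated genes one of -0.681. Without control 1 these were 0.459 and 0.136, so the sign of the second rested on that liver. Of all 10 genes, 8 were then positive and the median was 0.234.

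In EE against MASH, 2 genes were positive and 8 negative, with a median of -0.227 against -0.023 over all genes. That median was -0.11 without MASH 3, -0.119 without EE 3 and -0.409 without EE 2, and 4 genes were positive when MASH 1, MASH 3 or EE 3 was left out. Rgs5 and Pdgfrb were lower in every EE liver, 2 of 10 genes, where 15.5% of all genes were lower without overlap, and none was higher without overlap, against 16.7%. In resmetirom against MASH, 9 were positive and only Reln was negative, with a median of 0.678 against 0.056 over all genes. Hand2 and Des were higher without overlap, where 11.6% of all genes were, and none was lower without overlap, against 12.3%. That median was 0.227, with 6 positive and 4 negative genes, when resmetirom 1 was left out. These comparisons share the MASH livers.

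EE and resmetirom were both given by mouth to mice of the same model, at different doses, so their values stand side by side and say nothing of potency. All 10 genes had a lower fitted level in EE than in resmetirom livers, with a median of -0.757 against -0.08 over all genes, where 42.4% of all genes had a positive fold change. Pdgfrb was the 1 gene lower without overlap, against 9.09% of all genes, and none was higher without overlap, against 8.7%. Tagln (-1.03 ± 0.43, adjusted p = 0.382) and Rgs5 (-0.96 ± 0.39, adjusted p = 0.360) had the next lowest unadjusted p. Without resmetirom 1, 8 were negative and 2 positive, and the median was -0.246.

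Pairs of the genes were compared across livers. Over the 12 livers, 39 of the 45 pairs had a positive Pearson r of log2(CPM + 0.5), and 10 pairs passed a 2-sided permutation test adjusted over the 45 pairs. Livers were permuted across the 4 groups, so differences between groups enter these correlations. By Spearman's rho, 2 pairs passed. Acta2 and Tagln gave r = 0.843 (permutation p = 0.00041, adjusted p = 0.00922) and rho = 0.867 (permutation p = 0.00062, adjusted p = 0.0245), and r was 0.707 without control 1 and MASH 2, the livers farthest from the median of Acta2. Lrat and Ngfr gave r = 0.812 (permutation p = 0.00298, adjusted p = 0.0232) and rho = 0.839 (permutation p = 0.00109, adjusted p = 0.0245), with r = 0.740 without EE 3 and resmetirom 1. For deviations from group means, r was 0.913 for Acta2 with Tagln and 0.896 for Lrat with Ngfr, which was not tested.

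The contractile genes Tagln and Des gave r = 0.909 (permutation adjusted p = 0.0072) and rho = 0.748 (permutation adjusted p = 0.0871), with r = 0.814 without control 1 and resmetirom 2. Ngfr and Colec11 gave r = 0.885 (permutation adjusted p = 0.0096) and rho = 0.657 (permutation adjusted p = 0.174), with r = 0.530 without control 2 and resmetirom 1. Acta2 and Lrat gave r = -0.0844 (permutation p = 0.787) and rho = -0.217. The pairs did not follow the division into quiescent and contractile genes: the quiescent Hand2 gave r = 0.676 with Des (permutation adjusted p = 0.0599) and 0.22 with Lrat, and Reln passed with no gene. Tagln and Pdgfrb went from r = 0.472 to 0.75 without control 1 and resmetirom 2, the livers farthest from the median of Tagln. The other 6 pairs that passed rested on the 2 livers left out: their r of 0.701 to 0.813 became 0.156 to 0.388. Lrat with Pdgfrb, for instance, went from r = 0.813 to 0.379 without EE 3 and resmetirom 1. Without resmetirom 1, 2 of the 45 pairs passed by Pearson's r, and without resmetirom 1 and control 1, 0 did.

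**Figure D3:**
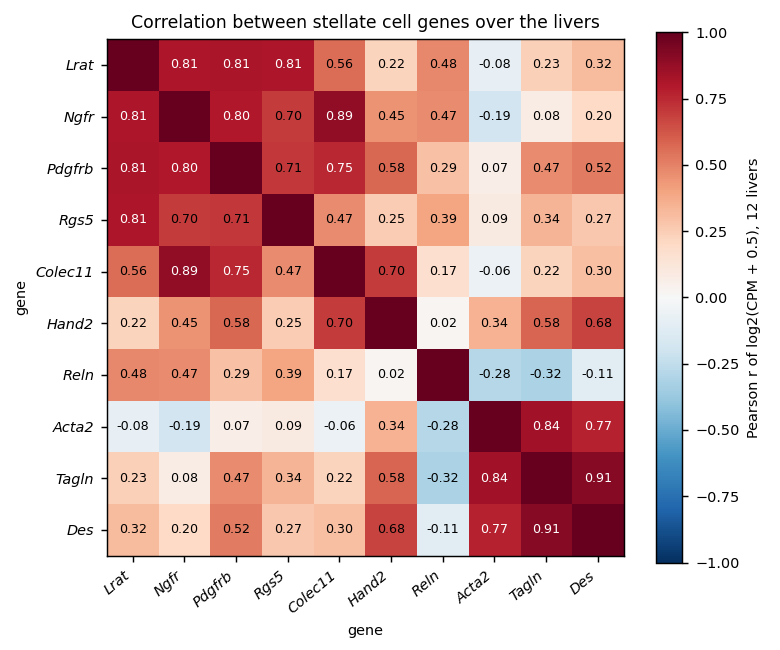
Pearson r between each pair of the 10 genes over 12 livers, on log2(CPM + 0.5). Acta2, Tagln and Des have r of 0.772 to 0.909 with each other, and Lrat, Ngfr and Pdgfrb have r of 0.798 to 0.813.

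Among all other named genes with a mean of at least 1 CPM, those most like Acta2 over the 12 livers were Myh11 (r = 0.976), the heavy chain of smooth muscle myosin, Myl9 (r = 0.926), a myosin light chain, and S100a6 (r = 0.917). Myh11 was at 10.9 CPM in control 1 and 0.719 to 4.76 elsewhere. Those most like Lrat were Dcn (r = 0.882), the matrix proteoglycan decorin, Lilrb4a (r = 0.879), a leukocyte receptor, and Marcks (r = 0.873). Dcn was at 199 CPM in resmetirom 1 and 60.1 in EE 3, the extremes for Lrat as well. These r values were picked as the highest of many and carry no test.

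**Figure D4:**
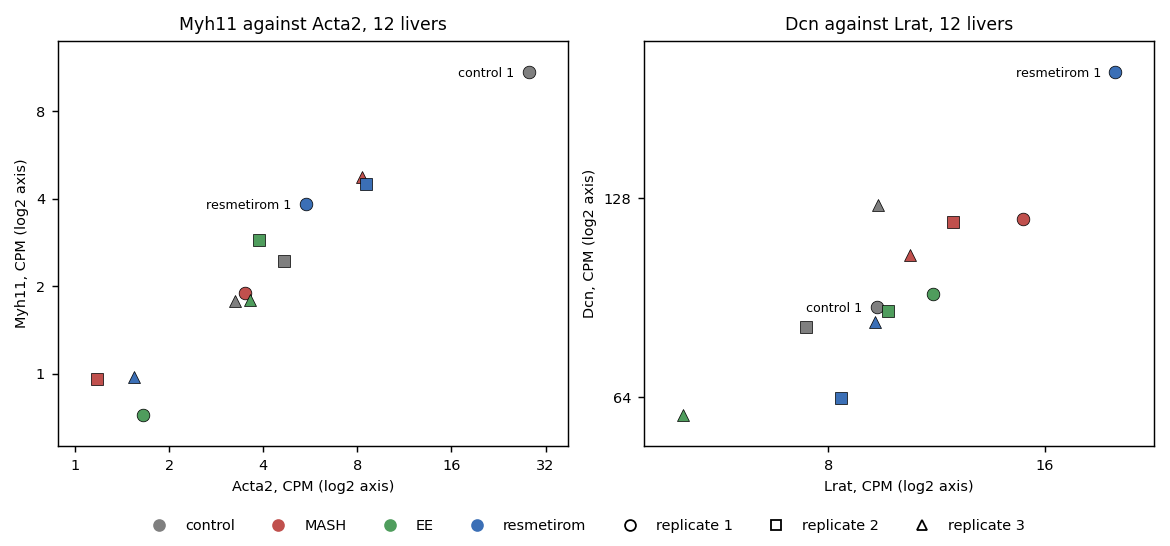
Left, Myh11 against Acta2. Right, Dcn against Lrat. Each point is 1 of 12 livers, both axes are CPM on a log2 scale, colour is the group and shape the replicate. Control 1 is the extreme of the left plot, with Acta2 at 28.3 CPM, and resmetirom 1 of the right, with Lrat at 20.1 CPM.

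Markers of other cells moved with these livers. The division into Acta2, Tagln and Des and the other 7 genes was made after the values were seen and is a description. In control 1 the median of Acta2, Tagln and Des was 1.82 log2 units above the mean of the MASH livers, whereas the other 7 genes had a median of -0.28. There the 8 vascular smooth muscle markers had a median of 0.81, 10 Kupffer cell markers one of -2.37 and 10 sinusoidal endothelial markers one of -1.57. In resmetirom 1 the 7 genes had a median of 1.09, Kupffer cell markers 1.25 and 8 cycling cell markers 2.46. In resmetirom 2, Acta2, Tagln and Des had a median of 1.14, and sinusoidal endothelial markers one of -1.13.

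Summed over the list, vascular smooth muscle markers ran from 55.1 to 90.8 CPM in control, 57.5 to 73.9 in MASH, 58.7 to 69.1 in EE and 48.9 to 60.8 in resmetirom livers. Mylk, a kinase also made by other cells, held 35.1 to 68.2 CPM of that sum. Without Mylk, which was set apart after its values were seen, the other 7 summed to 8.20 to 22.5, 5.94 to 12.6, 5.90 to 9.20 and 8.61 to 18.6 CPM, with control 1 (22.5), resmetirom 1 (18.6) and resmetirom 2 (13.7) the highest livers. Of the full list, 6 of 8 had counts in every library, and Cnn1 and Pln were at 0 in some. Portal fibroblast markers, of which 7 of 10 had counts in every library, summed to 15.5 to 39.6, 13.7 to 20.3, 7.49 to 11.1 and 14.0 to 57.9 CPM in the same order, with Gli1, Clec3b and Pi16 at 0 in some. Kupffer cell markers, all 10 with counts throughout, summed to 77.1 to 395 in control, 381 to 478 in MASH, 446 to 573 in EE and 383 to 976 in resmetirom livers. Cycling cell markers, 6 of 8 with counts throughout and Ccnb1 and Bub1 at 0 in some library, reached 61.0 CPM in resmetirom 1 and lay between 3.22 and 13.7 in the other livers. Mesothelial markers summed to at most 4.43 CPM, and 6 of the 7, Msln, Upk3b, Upk1b, Lrrn4, Wt1 and Muc16, were at 0 in some library. Hepatocyte markers summed to 86750 to 159200 CPM in control, 75400 to 90790 in MASH, 102400 to 109000 in EE and 55680 to 92000 in resmetirom livers. Their sum was highest in control 1 and lowest in resmetirom 1, and every EE liver was above every MASH liver. The part of other cells and of the mitochondrial share in these differences was not tested.

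**Figure D5:**
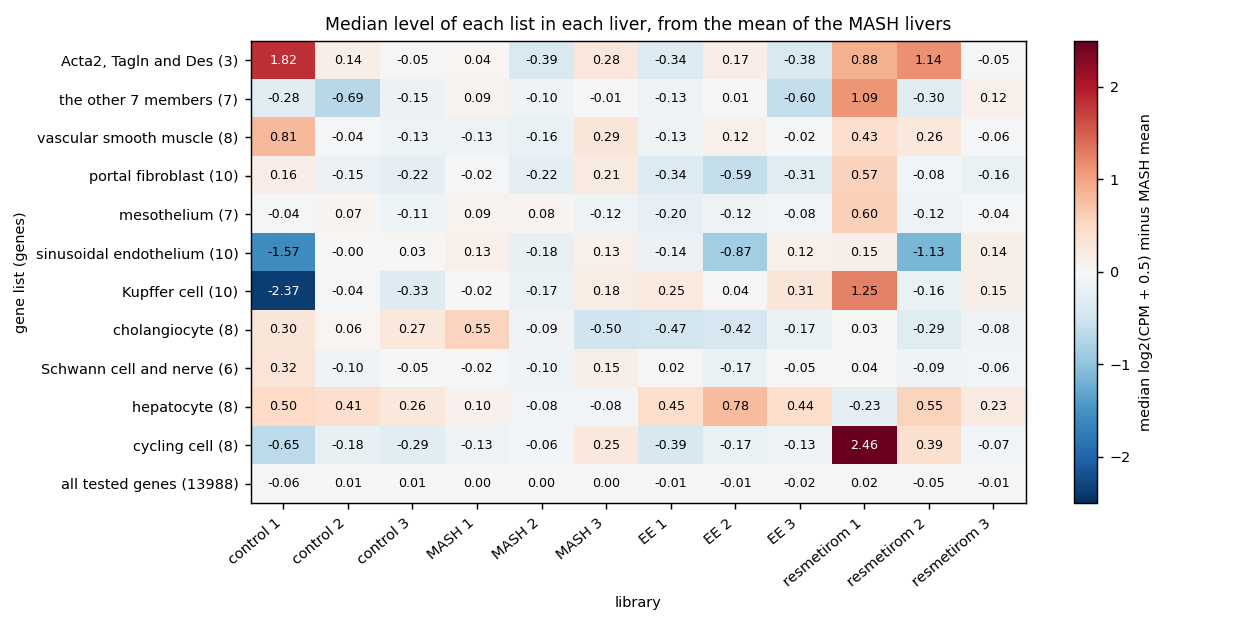
Median log2(CPM + 0.5) of each gene list in each liver, minus the mean of the MASH livers, with the number of genes in brackets. Control 1 is high for Acta2, Tagln and Des (1.82) and low for Kupffer cell markers (-2.37), and resmetirom 1 is high for the other 7 genes (1.09) and for cycling cell markers (2.46).

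Of 114 tested genes in 10 lists of related function, 2 passed in resmetirom against MASH, both higher, among them Sort1, and none passed in the other 3 comparisons. In EE against MASH with the block in those 2 groups, 32 of 108 passed, 3 higher and 29 lower. Over all 13248 genes tested in that fit, 20.7% passed, 1400 higher and 1345 lower. Without a block, EE and MASH libraries alone gave 1 list gene higher and 16 lower, and 391 genes higher and 355 lower over all. With the block in all 12 libraries, 0 of 114 list genes passed. The block was chosen on these same data, so its calls here and in the lists below are no independent evidence. Sort1, which encodes sortilin, a partner of the p75 receptor and a sorting receptor of hepatocytes, was at 43.9, 44.5 and 58.8 CPM in resmetirom and 16.4, 19.7 and 11.9 in MASH livers. Every resmetirom liver was above every other liver of the study, and the change was 1.62 ± 0.24 (edgeR adjusted p = 0.0155). Sort1 also passed in the test among the 4 groups (edgeR adjusted p = 0.0193). It did not pass in a fit of resmetirom and MASH livers alone (adjusted p = 0.0925) or when any MASH liver was left out (adjusted p = 0.0646 to 0.0881).

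Of the other 17 tested quiescent stellate genes, 14 were positive in MASH against control (median 0.224), 4 in EE against MASH (median -0.324), 11 in resmetirom against MASH (median 0.404) and 2 in EE against resmetirom (median -0.351). Adamtsl2 had 47.9 CPM in resmetirom 1 and 4.10 to 11.5 in the other livers. The 12 tested contractile and mural genes had medians of 0.036, -0.188, 0.665 and -0.767 in the same order, with 7, 3, 10 and 1 positive. The 11 tested stellate transcription factors had medians of 0.171, -0.429, 0.289 and -0.624. Without resmetirom 1, the medians for resmetirom against MASH were 0.096, 0.068 and -0.224 in these 3 lists, and those for EE against resmetirom were -0.399, -0.519 and -0.218. Without control 1, those for MASH against control were 0.18, 0.159 and 0.084. In EE against MASH with the block in those 2 groups, 5 quiescent genes, 2 contractile and mural genes and 5 transcription factors passed, all lower. Over all 13248 genes tested in that fit, 1345 passed lower. Among the genes of these lists, picked after their values were seen, were Dcn (-0.549 ± 0.0948, adjusted p = 0.00804) and Zeb2 (-1.12 ± 0.148, adjusted p = 0.00389).

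Among 18 tested myofibroblast and scar genes, all had a negative fold change in EE against MASH (median -0.86) and in EE against resmetirom (median -1.75), 17 were positive in resmetirom against MASH (median 0.777) and 15 in MASH against control (median 0.501), and 0 passed in any. Without resmetirom 1, only 2 were positive in resmetirom against MASH (median -0.568), and EE against resmetirom had 5 positive and 13 negative (median -0.454). In EE against MASH with the block in those 2 groups, 6 of 17 passed, all lower: Col1a1, Loxl1, Fbn1, Sparc, Vim and Lum. Over all 13248 genes tested in that fit, 1345 passed lower. Col1a1, a chain of type I collagen, was at 11.3, 7.78 and 8.58 CPM in control, 14.7, 10.7 and 22.1 in MASH, 5.24, 5.23 and 3.58 in EE and 90.4, 9.14 and 7.54 in resmetirom livers. EE livers were the lowest for it, and resmetirom 1 held most of its group's level. EE against MASH gave -1.76 ± 0.76 (adjusted p = 0.638), and -1.71 ± 0.339 (adjusted p = 0.0379) with the block in those 2 groups.

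Ligands of the PDGF receptors did not pass in the fit of all 12 libraries. The 5 tested PDGF ligands and receptors other than Pdgfrb had medians of 0.219, -0.634, -0.057 and -0.903 in the 4 comparisons. Pdgfd was at 0.565, 0.490 and 0.346 CPM in EE and 2.41, 1.97 and 1.25 in MASH livers, a change of -1.98 with an adjusted p of 0.582, and of 0.00657 with the block in those 2 groups. The 18 TGF beta pathway genes had medians of 0.085, -0.094, 0.158 and -0.378, and the 13 tested genes of the SRF, MRTF and YAP axis had 0.032, -0.263, -0.008 and -0.344. With the block in the EE and MASH groups, where 20.7% of all genes passed, Pdgfa, Tgfbr1 and Skil also passed, all lower. Of the SRF, MRTF and YAP axis, Tead1, Wwtr1, Ccn1, Actg1 and Flna passed lower and Amotl2 higher in that fit. Without resmetirom 1, the medians for resmetirom against MASH were -0.529, -0.258 and -0.23 in the PDGF, TGF beta and SRF lists, and those for EE against resmetirom were -0.203, 0.037 and -0.156. Without control 1, those for MASH against control were 0.135, -0.148 and -0.135.

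In retinoid handling, the 17 tested genes had medians of 0.145, 0.046, 0.194 and -0.057. Cyp26a1, which breaks down retinoic acid, was at 27.6, 4.27 and 8.37 CPM in control and 3.69, 2.26 and 2.27 in MASH livers (-2.28 ± 0.71, adjusted p = 0.510). Its control livers lay above the MASH livers, control 1 by the most. Rxrb, a retinoid X receptor, was at 33.0, 32.9 and 33.5 CPM in EE and 32.0, 38.1 and 34.1 in resmetirom livers. All of these lay above the 22.1, 22.3 and 26.6 of MASH livers, with adjusted p of 0.595 and 0.136. In the blocked fit of EE and MASH, where 20.7% of all genes passed, Rxrb (adjusted p = 0.00939) and Rxra (0.422 ± 0.084, adjusted p = 0.0124) passed higher. Rarb (-1.22 ± 0.325, adjusted p = 0.0337) passed lower there. Vldlr, a reelin receptor and the only 1 of 3 reelin pathway genes tested, was at 3.93, 1.55 and 5.93 CPM in MASH livers. It was at 0.308, 0 and 0.410 in resmetirom livers, below all MASH livers (-3.85, adjusted p = 0.0567). In EE against MASH, Vldlr was also lower (-2.51) and did not pass in the fit of all 12 libraries. With the block in the EE and MASH groups the change was -2.48 ± 0.365 (adjusted p = 0.00523).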

How the data were processed

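Stranded poly(A) libraries of 12 livers were sequenced, per the labels' protocols. The authors deposited expected counts per Ensembl gene, not scaled to a common total. The submitters' processing notes name fastp and GRCm39, while aligner, counting tool and strand setting were not given in the sources used here. Expected counts were rounded. Symbols and exon lengths came from GRCm38 tables, and 22603 of the 28036 identifiers had a symbol. A robust quasi-likelihood fit in edgeR 4.0.16 (R 4.3.3), after TMM scaling and filterByExpr on the groups, used all 12 libraries with 8 residual degrees of freedom, and the biological coefficient of variation was 0.334. SE is the log2 fold change divided by the square root of F. At these depths 1 CPM before scaling stood for 17.3 to 21.8 counts. No label says whether samples of a group are separate mice, so p-values measure the spread between these samples. Replicates differed beyond counting noise. Deviations of same-numbered samples from their group means correlated in all 3 pairs of MASH and EE (r = 0.279, 0.219 and 0.213). The fit with the number as a block is therefore given beside the first for these groups. The block was chosen from the data, since no label says what a replicate number marks, and the blocked fit used the same data. The submitters' library names carry other numbers, which mostly differ between same-numbered MASH and EE samples. Samples of different number reached higher r in other groups (0.513 for control 1 with resmetirom 2). These r values therefore do not establish a pairing. In MASH with control (-0.019, 0.075, -0.016), MASH with resmetirom (0.15, 0.203, 0.003) and EE with resmetirom (0.036, 0.083, 0.142) at least 1 pair lay below 0.1. Scripts were tested on simulated data that held no replicate effect and no outlying library. The blocked fit of EE and MASH alone was not among the fits tested in that way.

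The 10 genes and all lists were chosen with earlier results of these data known. All 10 are named, with up to 4 genes per list and comparison of lowest p, and for Acta2 and Lrat the 3 genes of highest r. Some genes that the rule allows are left out, and 1 gene that passed is not reported here. Correlations were tested with 100000 permutations. Alternatives were DESeq2 1.42.0, limma 3.58.1 voom, other scaling and filters, a replicate block and left-out libraries.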

Additional observations from a re-analysis of the deposited data

How the results depend on the processing

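The number of stellate cell genes past the threshold stayed at 0 in edgeR for most alternatives. It was 1 in EE against resmetirom (Pdgfrb) with DESeq2, with no filter and without control 1 and resmetirom 2. In the test among the 4 groups it was 2 with DESeq2 and 1 with no filter or without control 1 and resmetirom 2. In EE against MASH it was 2 (Lrat, -0.57, adjusted p = 0.0365; Rgs5, -0.598, adjusted p = 0.0102) with a replicate block in only the compared groups. The replicate block changed no other call of these genes. No pairing of samples by replicate number was established, and 7 of 12 libraries correlated best with their own number.

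Over all tested genes the counts moved with the setting. MASH against control (2) gave 87 with DESeq2, 1 with voom, 34 with no filter, 0 in only the compared groups, 0 with a replicate block there, 9 without control 1 and resmetirom 2, 16 without resmetirom 1 and control 1, and 0 to 6 leaving out each library. In the same order, with the replicate block in all libraries added (5), EE against MASH (1) gave 28, 0, 8, 746, 2745, 67, 4, and 0 to 1. Resmetirom against MASH (93) gave 657 with DESeq2, 243 with no filter, 0 in the compared groups, 27 with the block there, 467, 1978, and 1 to 431. EE against resmetirom (43) gave 410 with DESeq2, 176 with no filter, 3 in the compared groups, 10 with the block there, 19 with the replicate block in all libraries, 417, 240, and 7 to 138. Any difference (224) gave 1649 with DESeq2, 99 with voom, 671 with no filter, 122 with the block, 1104, 1830, and 28 to 407. Correlated pairs (10) were 18 without control 1 and resmetirom 2, 2 without resmetirom 1 and 0 without resmetirom 1 and control 1. The causes were not tested.

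Fold changes of genes that never passed in that comparison also changed sign. In MASH against control without control 1 and resmetirom 2, Hand2 was 0.0822, Acta2 0.141, Rgs5 -0.0134 and Des 0.336, and without resmetirom 1 and control 1 they were 0.0828, 0.139, -0.0156 and 0.333. Leaving out each library gave -0.533 to 0.0779, -2.34 to 0.136, -0.0178 to 0.193 and -1.18 to 0.331. Des in EE against MASH was 0.0122 with relative log expression scaling, 0.0116 with DESeq2, 0.00183 with voom, 0.0016 without resmetirom 1 and control 1, and -0.201 to 0.182 over single libraries, where Ngfr ran from -0.299 to 0.118 and Acta2 from -0.953 to 0.387. In resmetirom against MASH, Lrat was -0.0349 with voom, -0.0485 with the replicate block, -0.0704 with the block in the compared groups and -0.495 without resmetirom 1 and control 1, where Ngfr was -0.315 and Rgs5 -0.418. Without control 1 and resmetirom 2, Reln was 0.302 and Acta2 -0.282. Over single libraries Lrat ran from -0.495 to 0.238, Reln from -0.466 to 0.295, Ngfr from -0.317 to 1.21, Acta2 from -0.299 to 1.14 and Rgs5 from -0.415 to 0.677. In EE against resmetirom, Reln was 0.152 with voom, 0.0384 with the replicate block, 0.0859 with the block in the compared groups and 0.277 without resmetirom 1 and control 1, where Ngfr was 0.214, and their ranges over single libraries were -0.481 to 0.276 and -1.31 to 0.21.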
